A study of Mus musculus with 24 samples.

Results

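The distal ATAC-seq peaks that opened in germinal center (GC) B cells with combined loss of 1 Crebbp and 1 Kmt2d allele were examined. They were selected on the measured values as autosomal consensus peaks more than 5 kb from any annotated transcription start site (TSS), with a mean of 3 CPM or more in CK (fragments in the peak, scaled by the total fragments in peaks of the library) and a log2 ratio of the CK mean to the WT mean of 0.4 or more after adding 0.1 CPM to both. The rule was met by 772 of 65483 peaks. This is 5.01% of the 15394 distal autosomal peaks that passed the same level in CK. All mice carried Cg1Cre+/-, a Cre recombinase expressed from the IgG1 constant region locus, which acts in B cells responding to antigen. The genotypes were Cg1Cre+/- alone (WT, 4 mice), with Crebbp fl/+ (C, 4 mice), with Kmt2d fl/+ (K, 4 mice), and with both floxed alleles (CK, 5 mice), so the WT mice also expressed Cre and each mutant kept an intact allele. The study describes the mice as 8-week-old animals on a C57BL/6J background, and their splenic GC B cells were sorted 10 days after immunization with sheep red blood cells (SRBC). Each library came from 1 mouse.

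CREBBP is a histone acetyltransferase that acts mainly at enhancers. KMT2D methylates histone H3 at enhancers, where it helps to prepare them for activation. Distal accessible peaks mark many enhancers, although accessibility alone does not show that an element is active. GC B cells cycle between a proliferating dark zone state and a light zone state in which they are selected by T cells, and enhancers are switched between these states. ATAC-seq counts the fragments that a transposase cuts from open chromatin. In bulk cells, a larger share of cells with an open site and wider opening in each cell cannot be told apart.

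Fragments in peaks numbered 17483706 to 21857738 per library over the 17 libraries, and a member peak had a median of 90 fragments per library. The sorted population was checked on accessibility within 1 kb of the TSS of marker genes. GC B cell markers had such a peak at 11 of 12 genes, with summed levels of 875 to 978 CPM in WT and 833 to 893 CPM in CK. T cell markers had one at 1 of 8 genes (Cd3d), with 26.1 to 29.7 CPM in WT and 21.7 to 31.8 CPM in CK, and myeloid markers at 2 of 6 genes, with 5.47 to 7.45 CPM in WT and 6.07 to 8.48 CPM in CK. Cd3e, Cd3g, Cd4, Cd8a, Lyz2 and Itgam had no such peak. The GC B cell marker without one was Bcl6, so a missing peak does not by itself show that a cell type was absent. Promoters of the plasma cell markers Sdc1, Prdm1, Xbp1 and Irf4 were all accessible, summing to 224 to 232 CPM in WT, 225 to 240 CPM in C, 232 to 246 CPM in K and 231 to 242 CPM in CK. Erythroid markers had a peak at 2 of 4 genes, with 52.4 to 54.4 CPM in WT and 52.0 to 58.9 CPM in CK. Fragments on the short arm of the Y chromosome were present in 9 libraries (at least 1421 fragments each) and absent in 8 (at most 1), with mice of each genotype on both sides, whereas the study describes female mice. The part of the marker levels in the results was not tested. With the presence of Y fragments as a covariate, edgeR called 13 members higher and 2 lower in K than in C (12 and 2 without it), 71 higher in K and 13 in C than in WT (65 and 10 without it), and 413 higher in CK than in WT and 79 than in C (353 and 56 without it). Without the covariate, the shares of all peaks called were, in this order, 0.283%, 0.505%, 0.647%, 0.0596%, 3.54% and 0.907%. With it they are not given here, so those counts cannot be set beside a background.

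The central 300 bases of 8 members are shown, from the GRCm38 (mm10) reference and not from the mice. In capitals are matches, on either strand, to 20 short motifs of factors active in blood cells. The first 3 peaks were higher in K than in C by the test described further on. The peak nearest to Trib2, which encodes a pseudokinase, was intergenic, that in Me3 lay in an intron of this mitochondrial malic enzyme gene, and the third was intergenic near the olfactory receptor gene Olfr161. The Trib2-nearest sequence held matches to the AP-1, STAT and TCF/LEF motifs, and the Me3 sequence to RUNX, EBF and ETS-IRF motifs. Of the Me3 sequence, 54.0% was soft-masked as repeat, and 39 of its 276 words of 25 letters also occurred in transcripts of 609 genes, so that its fragments may not all be uniquely placed. No motif was matched near Olfr161, and 103 of the 276 words of 25 letters in that sequence also occurred in GENCODE transcripts, of 12 Igkv genes and of Gm17472, annotated as an immunoglobulin light chain V gene. Reads from these genes could be placed in this peak, and its values are uncertain for that reason.
Trib2-nearest peak, chr12:16032306-16032605, plus strand: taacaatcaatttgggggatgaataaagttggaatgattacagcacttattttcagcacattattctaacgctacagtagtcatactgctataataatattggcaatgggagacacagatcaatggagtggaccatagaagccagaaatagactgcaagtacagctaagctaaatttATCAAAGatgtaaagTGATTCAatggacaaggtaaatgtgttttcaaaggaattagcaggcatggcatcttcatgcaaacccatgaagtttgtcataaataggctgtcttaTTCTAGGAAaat
Me3 intron peak, chr7:89842599-89842898, plus strand: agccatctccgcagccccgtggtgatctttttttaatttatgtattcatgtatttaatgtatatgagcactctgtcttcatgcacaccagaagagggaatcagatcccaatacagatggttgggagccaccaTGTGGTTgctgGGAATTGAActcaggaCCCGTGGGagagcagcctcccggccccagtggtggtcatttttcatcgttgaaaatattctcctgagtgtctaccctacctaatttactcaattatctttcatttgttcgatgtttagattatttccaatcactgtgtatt
Olfr161-nearest peak, chr16:3578083-3578382, plus strand: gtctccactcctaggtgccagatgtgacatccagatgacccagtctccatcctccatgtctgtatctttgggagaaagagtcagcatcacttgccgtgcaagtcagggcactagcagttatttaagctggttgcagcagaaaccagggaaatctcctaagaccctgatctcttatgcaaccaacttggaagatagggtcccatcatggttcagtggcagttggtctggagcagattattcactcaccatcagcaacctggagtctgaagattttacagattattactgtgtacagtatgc

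A further pair of peaks was lower in K than in C. The peak in Ablim1, a gene for an actin-binding protein, matched none of the motifs, whereas that in Ctse, which encodes the endolysosomal protease cathepsin E, held an octamer (ATGCAAAT), which POU factors bind in B cells, a TCF/LEF match and an ETS-IRF match.
Ablim1 intron peak, chr19:57112858-57113157, plus strand: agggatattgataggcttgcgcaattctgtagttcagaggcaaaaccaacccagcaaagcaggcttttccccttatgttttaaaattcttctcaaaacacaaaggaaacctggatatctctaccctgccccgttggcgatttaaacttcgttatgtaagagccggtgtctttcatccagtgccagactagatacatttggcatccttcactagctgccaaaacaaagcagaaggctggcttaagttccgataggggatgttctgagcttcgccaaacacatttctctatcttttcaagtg
Ctse intron peak, chr1:131652882-131653181, plus strand: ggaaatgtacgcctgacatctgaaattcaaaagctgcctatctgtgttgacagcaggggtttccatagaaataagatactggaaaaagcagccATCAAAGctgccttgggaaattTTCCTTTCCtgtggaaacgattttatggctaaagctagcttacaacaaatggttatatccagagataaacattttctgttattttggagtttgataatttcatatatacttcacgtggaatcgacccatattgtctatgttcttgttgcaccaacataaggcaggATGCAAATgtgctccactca

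Among the peaks with the highest level in CK, that in Acoxl held 1 E-box of the CAGGTG form, the kind bound by E proteins. The peak in Med12l held 2 of these E-boxes. The peak nearest to Mks1 is shown as an example of those with the largest ratio and held 1 FOXO match.
Acoxl intron peak, chr2:128008800-128009099, plus strand: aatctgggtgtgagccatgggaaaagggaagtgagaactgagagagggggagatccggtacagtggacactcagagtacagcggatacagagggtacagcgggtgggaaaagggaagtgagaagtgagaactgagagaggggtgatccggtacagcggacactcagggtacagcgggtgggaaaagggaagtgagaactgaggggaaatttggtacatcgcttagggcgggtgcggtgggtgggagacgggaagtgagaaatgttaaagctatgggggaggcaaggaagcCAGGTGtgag
Med12l intron peak, chr3:59066119-59066418, plus strand: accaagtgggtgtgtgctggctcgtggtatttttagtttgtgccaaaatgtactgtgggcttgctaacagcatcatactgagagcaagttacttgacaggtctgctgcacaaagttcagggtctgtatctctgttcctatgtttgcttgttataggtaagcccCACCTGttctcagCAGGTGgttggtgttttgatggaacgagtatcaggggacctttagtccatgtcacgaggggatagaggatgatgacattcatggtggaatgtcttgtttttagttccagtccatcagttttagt
Mks1-nearest peak, chr11:87841240-87841539, plus strand: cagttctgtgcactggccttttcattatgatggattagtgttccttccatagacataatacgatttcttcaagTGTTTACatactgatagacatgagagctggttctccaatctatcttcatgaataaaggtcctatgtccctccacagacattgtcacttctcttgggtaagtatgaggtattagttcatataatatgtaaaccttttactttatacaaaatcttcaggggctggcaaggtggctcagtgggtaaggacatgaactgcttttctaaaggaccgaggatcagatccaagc

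As the rule required, every member was higher in CK, with a median log2 ratio to WT of 0.52 and an interquartile range of 0.45 to 0.65. The 3 members just inside the limit, in introns of Chmp4b, Etv6 and Prkar2b, and the 3 peaks just outside it, all intergenic, had log2 ratios of 0.40 in either case. Members were peaks of modest height, with a median of 3.56 CPM in WT, 4.44 CPM in C, 4.68 CPM in K and 5.32 CPM in CK. The other 14622 distal peaks had medians of 8.39 CPM in WT and 7.98 CPM in CK. The rule used the CK level and its ratio to WT, so the levels of the members are in part set by the choice. Members made up 7.77% of the distal peaks between 3 and 5 CPM in CK, 6.12% of those between 5 and 10 CPM, 3.55% of those between 10 and 20 CPM and 0.776% of those above 20 CPM. Since the choice used CK and WT, the edgeR calls for that pair are a description. At an adjusted p of 0.01, 353 members (45.7%) were called higher in CK, beside 3.54% of all peaks, and in 426 members (55.2%) every CK mouse was above every WT mouse, beside 7.16% of all peaks. Leaving out WT mouse 2, 3 or 4 gave 226, 231 and 188 called members. The called share was 29.8% of the members between 3 and 5 CPM and 95.8% of those above 20 CPM.

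The 2 single mutants were intermediate at these peaks. The median log2 ratio to WT was 0.26 in C and 0.37 in K, whereas it was 0.02 in C and -0.06 in K over the other distal peaks. Relative to WT, 734 members (95.1%) were higher in C, against 55.6% of the other distal peaks. In K, 750 members (97.2%) were higher, against 37.1%. The limit of 0.4 was also reached in K but not C by 224 members, in C but not K by 72, in both by 98 and in neither by 378. The order WT, C, K, CK from lowest to highest mean was found at 408 members (52.8%). The rule had already placed CK above WT, and K was above C at 516 members (66.8%). The log2 ratio in CK was below the sum of the ratios in C and K at the median member, by a difference of -0.08. Above that sum lay 285 members (36.9%). Over the other distal peaks the median difference was -0.02, and 44.2% lay above the sum. The rule used the CK and WT values that enter this difference, and additivity was not tested. All 3 ratios share the WT mice that the rule used, so these values are descriptive. By edgeR, 65 members were called higher in K than in WT (8.42%, beside 0.647% of all peaks) and 10 higher in C than in WT (1.3%, beside 0.0596% of all peaks). With the replicate number as a block, the count for C was 18, without a share over all peaks from that fit to set beside it. CK and C shared no mice but CK was used by the rule, and 56 members were called higher in CK than in C (7.25%, beside 0.907% of all peaks). Between CK and K the count was 1 (0.130%, beside 0.00458% of all peaks), an Ablim1 peak described further on. At an unadjusted p under 0.05, 212 members (27.5%) were higher in CK than in K, beside 4.14% of all peaks. DESeq2 called 7 members, and its share over all peaks is not given here. Single mice moved these counts. The count for K over WT was 23, 24 and 20 without WT mouse 2, 3 or 4 and 21, 43 and 35 without K mouse 1, 3 or 4, and that for C over WT was 6 without WT mouse 3 or C mouse 4. For CK over C it was 29, 26 and 16 without C mouse 1, 2 or 4 and 26 without CK mouse 1, and for CK over K it was 4 without K mouse 3 and 2 without K mouse 4, CK mouse 4 or CK mouse 5.

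The log2 ratio to the WT mean was also summarized in each mouse by its median over the members. The medians were 0.04, -0.04, 0.07 and -0.11 in the WT mice, 0.27, 0.23, 0.29 and 0.20 in the C mice, 0.36, 0.29, 0.42 and 0.33 in the K mice, and 0.48, 0.63, 0.60, 0.49 and 0.45 in the CK mice. The CK mice lay above all others, which the choice of members used, and the K and C mice overlapped in that the lowest K mouse was just under the highest C mouse. Mean values were 0.25 ± 0.04 in C (SD, n = 4) and 0.35 ± 0.05 in K (SD, n = 4). Among mice with Y fragments, the 3 K mice (0.33 to 0.42) were above the 2 C mice (0.23 to 0.27). Among mice without them, the 1 K mouse had 0.29 and the 2 C mice 0.20 and 0.29. Over the other distal peaks the medians per mouse were between -0.12 and 0.04.

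**Figure D1:**
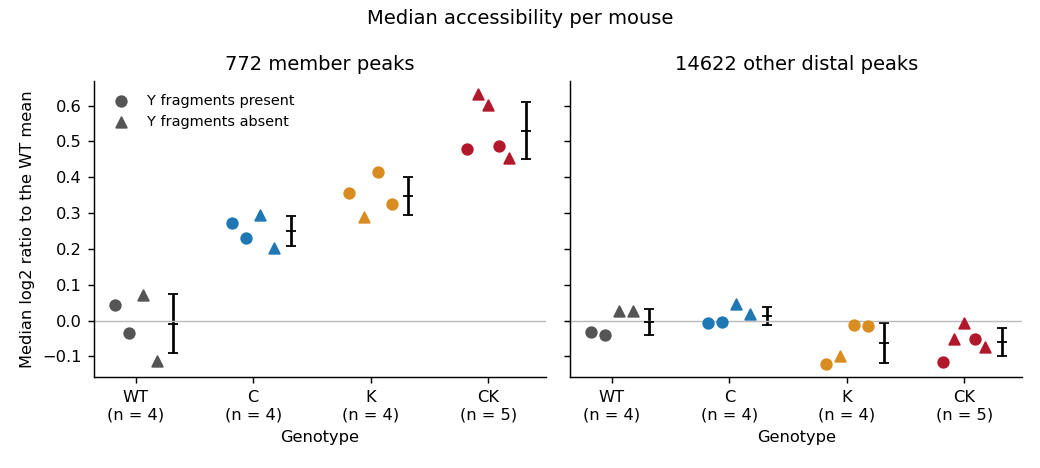
Median log2 ratio of CPM to the WT mean in each mouse over the members (left) and the other distal peaks (right), by genotype on the x axis, with the mean and SD at the right of each group. Points are mice, and their shape shows whether Y fragments were present. Over the members the C mice lie between 0.20 and 0.29, the K mice between 0.29 and 0.42 and the CK mice between 0.45 and 0.63, while over the other distal peaks every mouse lies between -0.12 and 0.04.

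The comparison of K with C used neither group that chose the members, and it was tested by edgeR's quasi-likelihood test across all peaks. Members were on the whole higher in K than in C. The median log2 fold change was 0.12, against -0.04 over the other distal peaks, and 542 members (70.2%) were above 0, against 38.8% of the other distal peaks. At an adjusted p of 0.01 by edgeR, 12 members (1.55%) were higher in K, beside 0.283% of all peaks, and 2 members (0.259%) were lower, beside 0.505% of all peaks. In 76 members (9.84%) every K mouse was above every C mouse, beside 4.28% of all peaks, and in 25 members (3.24%) every K mouse was below every C mouse, beside 6.59% of all peaks. Mice with the same replicate number deviated together in K and C, and with this number as a block edgeR called 27 members higher and 6 lower (12 and 2 without the block). The shares of all peaks called with the block are not given here, so the rise cannot be set beside a background. The count of members called higher was 3 without C mouse 4, K mouse 1 or K mouse 4, and 4 without C mouse 1 or C mouse 2, and that of members called lower was 7 without K mouse 3.

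**Figure D2:**
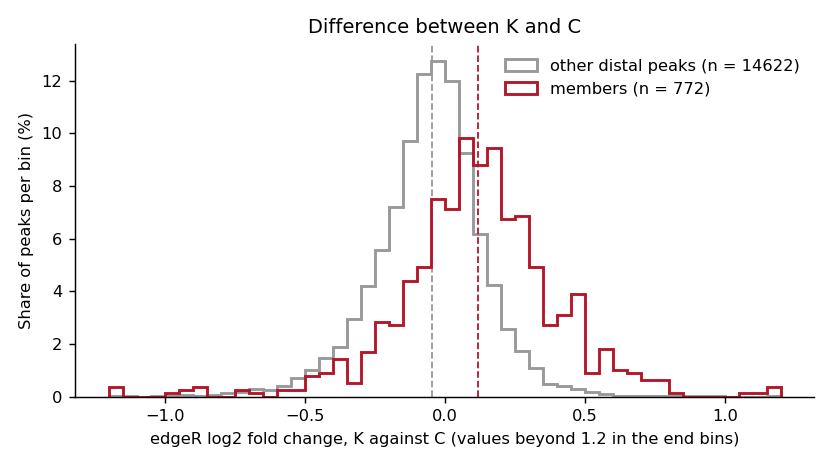
Share of peaks per bin of 0.05 (y axis, %) by edgeR log2 fold change of K against C (x axis), for the 772 members and the 14622 other distal peaks. Dashed lines mark the medians, 0.12 for the members and -0.04 for the other distal peaks.

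The median log2 fold change of K against C was 0.12 for members between 3 and 5 CPM in CK, 0.12 between 5 and 10 CPM, 0.11 between 10 and 20 CPM and 0.20 above 20 CPM. It was 0.11 for the 260 members within 10 kb of a TSS, 0.13 for the 448 at 10 to 50 kb, 0.10 for the 55 at 50 to 100 kb and -0.03 for the 9 beyond 100 kb. Members on chromosome 18 had the largest median, 0.25 over 43 members, and those on chromosome 19 the lowest, 0.01 over 26. The 1132 other distal peaks within 50 kb of a member had a median of -0.01, and the 13490 farther away one of -0.05. At promoters, 574 peaks within 1 kb of a TSS of the members' nearest protein-coding genes had a median of 0.08 and 11479 promoter peaks of other genes one of 0.07.

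The call with the lowest p among members higher in K was intergenic at chr12:16031779-16033131, 214857 bp from Trib2, the nearest protein-coding gene. It had 2.61, 2.59, 2.95 and 2.51 CPM in the WT mice, 1.58, 2.15, 2.01 and 2.61 CPM in the C mice, 3.84, 5.41, 5.03 and 6.43 CPM in the K mice, and 3.69, 4.82, 3.62, 4.10 and 5.32 CPM in the CK mice. All K and CK mice were above all WT and C mice. The log2 fold change of K against C was 1.34 ± 0.17 (SE, edgeR adjusted p = 8.9e-05). Across the other models, and without each K or C mouse, its adjusted p was between 3.5e-09 and 0.00099.

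In an intron of Me3, a peak at chr7:89841698-89843798 showed the same separation at a higher level. It had 13.6, 14.1, 13.3 and 14.5 CPM in WT, 15.2, 14.8, 14.1 and 14.7 CPM in C, 21, 21.5, 19.5 and 18.3 CPM in K, and 21.1, 22.7, 20.1, 21.7 and 21.8 CPM in CK. WT and C overlapped, as did K and CK, while all K and CK mice were above all WT and C mice. The log2 fold change of K against C was 0.48 ± 0.07 (SE, edgeR adjusted p = 0.0011). The peak near Olfr161, at chr16:3577265-3579199, had 6.07 to 6.92 CPM in C and 8.43 to 12.4 CPM in K, with a log2 fold change of 0.72 ± 0.13 (SE, edgeR adjusted p = 0.0044, with 0.018 as the highest value under the alternatives). The remaining members called higher in K, apart from those at Tcf4 and Scd4, were nearest to Barx1, Dyrk1b, Hsf2, Pitrm1, Enpep and Bcat1, with log2 fold changes between 0.57 and 1.10. They were named because so few members were called, after their values were seen.

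Both members lower in K than in C stood apart in other ways. The peak in an intron of Ablim1, at chr19:57112611-57113403, had 11.5, 11.8, 8.78 and 9.05 CPM in the C mice but 0.208, 0, 0.318 and 0.324 CPM in the K mice. It had 7.11, 7.14, 7.85 and 4.15 CPM in WT, and 10.6, 13, 11.1, 5.35 and 4.75 CPM in CK. The near absence of fragments was thus seen in K and not in CK (edgeR adjusted p = 3.8e-08 for K against C). The peak in an intron of Ctse, at chr1:131652431-131653632, had 21, 18.7, 24.5 and 23.3 CPM in C, but 10.8, 9.38, 10.6 and 12.4 CPM in K. The WT mice had 11.7 to 13.4 CPM, CK mice 1 to 3 had 19.5, 19.9 and 19.3 CPM, and CK mice 4 and 5 had 12.5 and 13 CPM, so that the CK mice fell on both levels. The log2 fold change of K against C was -0.98 ± 0.13 (SE, edgeR adjusted p = 0.00018).

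**Figure D3:**
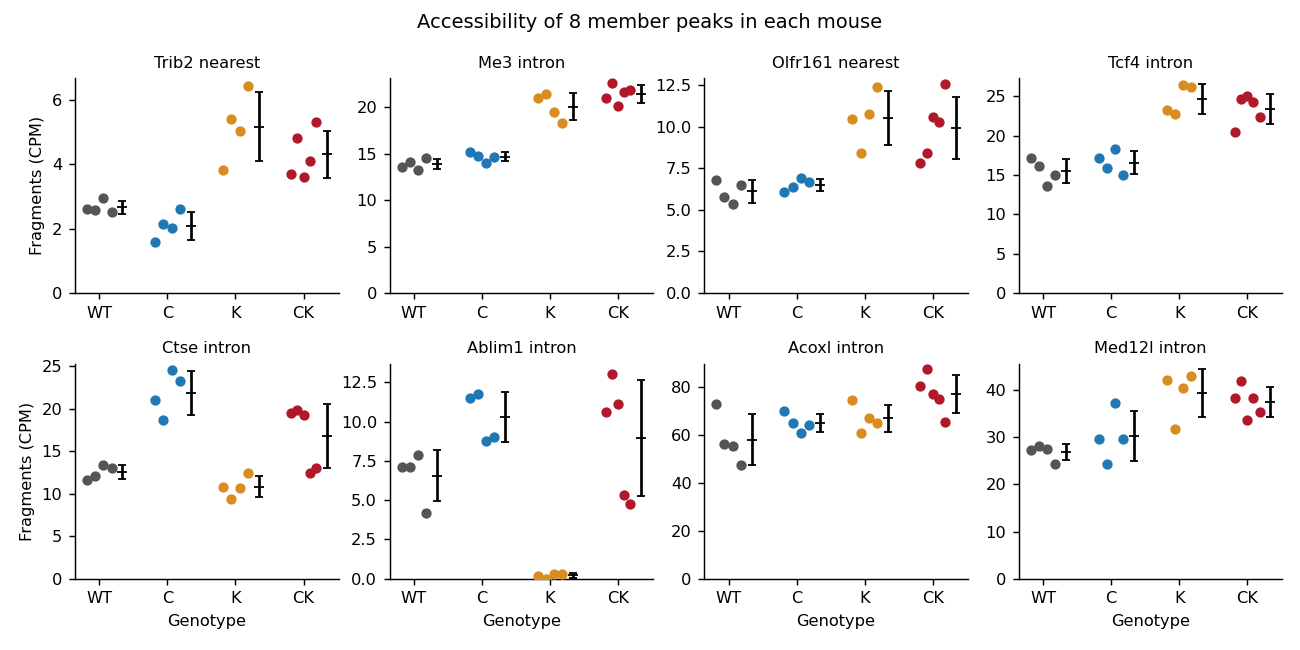
CPM (y axis, from 0) of 8 members in each mouse (points), by genotype (x axis), with the mean and SD at the right of each group. The Me3 peak lies between 18.3 and 22.7 CPM in all K and CK mice and between 13.3 and 15.2 CPM in all WT and C mice, and the Ablim1 peak is at or below 0.324 CPM in the 4 K mice.

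Tcf4, which encodes an E protein transcription factor used by B cells and plasmacytoid dendritic cells, was the nearest protein-coding gene of 6 members, more than any other gene, out of 21 distal peaks. All lay in introns, between chr18:69372521 and 69508208, and their median log2 ratio to WT was 0.13 in C, 0.57 in K and 0.62 in CK. At the strongest change of these by p, chr18:69471829-69473821, the mice had 17.2, 16.1, 13.6 and 15 CPM in WT, 17.1, 15.9, 18.3 and 15 CPM in C, 23.2, 22.7, 26.5 and 26.2 CPM in K, and 20.5, 24.6, 25, 24.3 and 22.3 CPM in CK. K and CK mice were all above WT and C mice, with a log2 fold change of K against C of 0.60 ± 0.08 (SE, edgeR adjusted p = 0.00031). The member at chr18:69372521-69374892 had means of 6.14 ± 0.79 CPM in WT, 7.45 ± 1.5 CPM in C, 12 ± 1.31 CPM in K (SD, n = 4 each) and 12.1 ± 0.66 CPM in CK (SD, n = 5), with a log2 fold change of K against C of 0.72 ± 0.12 (SE, edgeR adjusted p = 0.0026). At the other 4 members the log2 fold change was between 0.25 and 0.75, and edgeR's adjusted p between 0.017 and 0.22. With the replicate block, those at chr18:69475392-69477314 and chr18:69441146-69442402 passed the threshold (edgeR adjusted p = 0.0070 and 0.0077).

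The peaks nearest to Tcf4 were then compared by position. From the first Tcf4 TSS to 170 kb downstream, a limit set after the values were seen, all 11 peaks with a CK mean of 3 CPM or more were higher in K than in C, with log2 fold changes of 0.18 to 0.75. Of these peaks, 6 were members and 4 were called, and both called peaks outside the members lay within 5 kb of an internal TSS. One of these, at chr18:69498625-69500013, had a CK mean of 46.3 CPM and a log2 fold change of K against C of 0.51 ± 0.08 (SE, edgeR adjusted p = 0.0012). From 170 to 340 kb, 2 of 14 peaks were above 0, the median was -0.04 and edgeR called 0 (the values ranged from -0.38 to 0.13). Upstream of the first TSS, 5 of 6 peaks were above 0, with a median of 0.23, a range of -0.29 to 0.55 and 0 calls. With the replicate block, edgeR called 7 of the 11 peaks in the first stretch, 4 of them members, 0 of the 14 beyond and 1 of the 6 upstream.

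**Figure D4:**
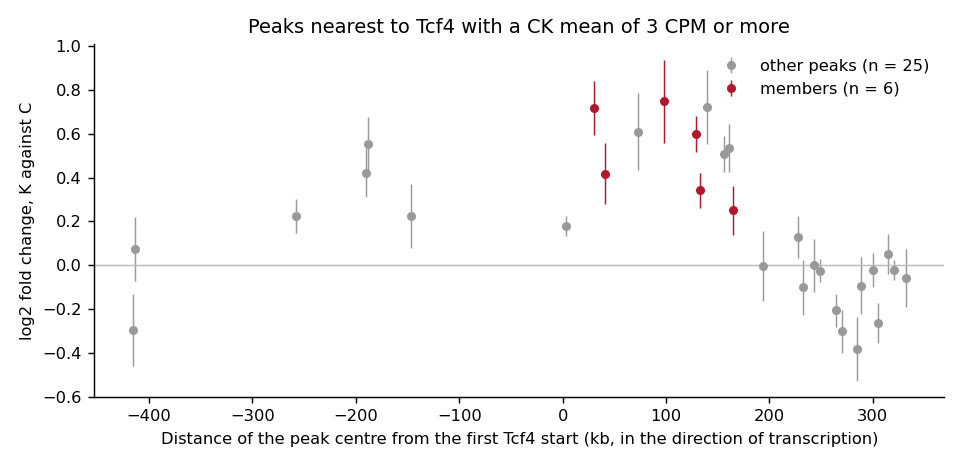
Log2 fold change of K against C with its SE (y axis) for the 31 peaks nearest to Tcf4 with a CK mean of 3 CPM or more, by distance of the peak centre from the first TSS in kb (x axis). The 6 members lie between 0.25 and 0.75 within the first 170 kb, where all 11 peaks are above 0, the 14 peaks beyond have a median of -0.04, and the 6 peaks upstream of the first TSS have one of 0.23.

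Adgrl2 and Fam135a were the other genes nearest to 4 or more members. Of the 11 distal peaks nearest to Adgrl2, an adhesion G protein-coupled receptor gene, 4 were members and all 4 were intronic. The member at chr3:148895174-148896156 had means of 6.18 ± 0.78 CPM in WT, 7.56 ± 1.3 CPM in C, 8.04 ± 1.08 CPM in K (SD, n = 4 each) and 10.9 ± 1.32 CPM in CK (SD, n = 5). Here the CK mice (9.27 to 12.7 CPM) reached above all K mice (6.54 to 8.93 CPM) but overlapped with the highest C mouse (9.45 CPM). That at chr3:148917740-148918759 had 4.85 to 6.61 CPM in CK, 3.48 to 4.03 CPM in K and 2.19 to 2.62 CPM in WT, and 2.53, 2.65, 6.35 and 4.05 CPM in C. All 4 distal peaks nearest to Fam135a were members, 3 in introns and 1 with its centre in an exon. They spanned chr1:24043014-24056497, with a median log2 ratio to WT of 0.62 in C, 0.40 in K and 0.65 in CK. In neither gene was a member called between K and C, where the log2 fold changes were -0.03 to 0.16 at Adgrl2 and -0.27 to 0.24 at Fam135a.

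The members with the highest CK levels changed by amounts close to the limit. The peak in an intron of Acoxl, at chr2:128008341-128009557, had 72.8, 56.4, 55.5 and 47.5 CPM in WT, 70.2, 65.2, 60.9 and 64.3 CPM in C, 74.8, 61.0, 67.0 and 65.1 CPM in K, and 80.5, 87.6, 77, 75.2 and 65.4 CPM in CK. WT mouse 1 lay above CK mouse 5, so these groups overlapped. The intergenic peak at chr9:96399149-96400141, 34707 bp from the sodium pump subunit gene Atp1b3, had 37.8 ± 4.10 CPM in WT and 50.3 ± 5.03 CPM in CK. The peak in an intron of Med12l, at chr3:59065338-59067198 and nearest to Gpr171, had 26.8 ± 1.68 CPM in WT, 30.1 ± 5.26 CPM in C, 39.3 ± 5.13 CPM in K (SD, n = 4 each) and 37.5 ± 3.18 CPM in CK (SD, n = 5). Between K and C it had a log2 fold change of 0.41 ± 0.10 and did not pass the threshold (SE, edgeR adjusted p = 0.018), but passed it narrowly with the replicate block (edgeR adjusted p = 0.00999). Here C mouse 3 (37.1 CPM) lay above K mouse 2 (31.8 CPM). The others of the 8 highest were nearest to Ctdp1, Smad7, Foxo6, Dnajb6 and Wnt11, with CK means of 51.6, 41, 38.9, 31.1 and 30.1 CPM and log2 ratios to WT between 0.41 and 0.51. The Smad7-nearest peak had an edgeR adjusted p of 0.017 between K and C, and of 0.0020 with the replicate block.

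The largest ratios of CK to WT came from peaks that were high in some mice and nearly closed in others. All 10 members with the largest ratio had a mouse more than 3-fold above another of the same genotype, a criterion set after the values were seen. It was met by 27 members (3.50%) and by 56 of the other distal peaks (0.383%). In 15 of the 27, the sorted mice were split by a gap of 1 log2 unit or more, and in 12 of these the gap ran between mice of the same mutant genotype. The intergenic peak at chr12:22030406-22031227, with the largest log2 ratio (4.35), had 3.75 CPM in C mouse 2, 4.30 and 4.24 CPM in K mice 2 and 3, and 3.25 to 5.35 CPM in CK mice 2 to 5, but at most 0.190 CPM in each of the other 10 mice. At chr19:44351168-44352459, 18076 bp from the desaturase gene Scd4, K mice 1, 3 and 4 and CK mouse 1 had 22.8 to 26.6 CPM and every other mouse at most 0.771 CPM. This peak is 1 of the 12 called higher in K than in C, although K mouse 2 had 0.446 CPM (edgeR adjusted p = 0.0088, and up to 0.038 under the alternatives).

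Neighbouring members of this kind shared their mice. On chromosome 6, the peaks at chr6:106408120-106409646 in an intron of Cntn4 and at chr6:107770897-107772260, intergenic, were both high in the 4 C mice, in K mice 1 and 2 and in CK mice 1 to 3. In the Cntn4 peak these 9 mice had 5.04 to 10.4 CPM, and the other 8 mice had 0.0925 to 1.42 CPM. The peaks nearest to Itpr1 and Tmem72 on the same chromosome were split in the same way by a smaller gap. Genotype and mouse were thus mixed at these peaks, and what the mice that shared a level had in common was not tested. Without the 27 members, edgeR called 11 members higher and 1 lower in K than in C, with a median log2 fold change of 0.12 over 745 members, and the median log2 ratios to WT per mouse averaged 0.25 in C, 0.35 in K and 0.53 in CK.

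**Figure D5:**
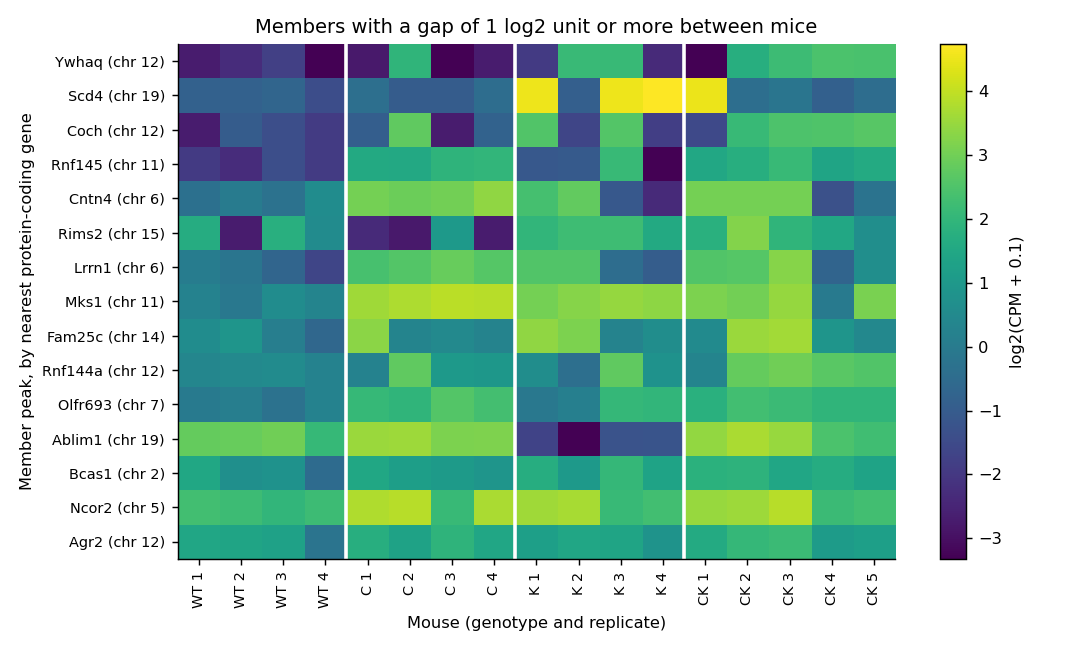
Heat map of log2(CPM + 0.1) in each mouse (columns, by genotype) for the 15 members (rows, by nearest protein-coding gene) that had a mouse more than 3-fold above another of the same genotype and a gap of 1 log2 unit or more between mice. At the Cntn4 and Lrrn1 peaks the same 9 mice are high, and at the Scd4 peak 3 K mice and 1 CK mouse.

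Of the 10 members called higher in C than in WT, 7 lay on chromosome 11, which held 66 members, and 20 of the 39 peaks called in this direction over the whole table were also on it. They were nearest to Sptbn1, Smim23, Rnf145, Timd4, Mks1, Msi2 and Akap1 and spanned chr11:30182914-88817725. At the Rnf145 peak, chr11:44510111-44511155, the C mice had 2.87, 2.79, 3.72 and 3.83 CPM and the CK mice 2.5 to 4.19 CPM. The WT mice had at most 0.285 CPM, K mouse 3 had 4.18 CPM and the other K mice at most 0.391 CPM. At the intergenic peak nearest to Mks1, a ciliary gene, the C mice had 12, 13.4, 15 and 14.7 CPM, the K mice 8.20 to 11 CPM and the WT mice 0.828 to 1.43 CPM. CK mouse 4 had 0.901 CPM there, at the WT level, and the other CK mice had 8.08 to 11 CPM. These members are a description, since the WT mice also chose them.

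Members nearest to listed genes were counted beside the share of members among all distal peaks. The lists had 15 to 243 distal peaks each. The share of members fell with the level in CK, and this level was not matched between the lists and all distal peaks. Of 243 distal peaks nearest to 18 B cell transcription factor genes, 9 (3.70%) were members, against 5.01% of all distal peaks, and 6 of these were at Tcf4. The others were nearest to Pax5, Ikzf1 and Foxo1, which direct B cell identity, lymphoid development and the dark zone program. The Pax5-nearest peak, at chr4:44522320-44524485, had 2.22 ± 0.86 CPM in WT, 2.67 ± 0.59 CPM in C, 3.51 ± 0.84 CPM in K (SD, n = 4 each) and 3.93 ± 0.58 CPM in CK (SD, n = 5), and the WT mean rested on WT mouse 1 with 3.50 CPM. Centroblast genes had 0 members among 80 distal peaks and plasma cell and memory genes had 0 among 88. Centrocyte and immune synapse genes had 1 of 105 distal peaks (0.952%), at chr17:34280509-34282171 near the MHC class II gene H2-Aa, where CK mouse 2 had 19.5 CPM and the other CK mice 4.86 to 8.78 CPM. T cell genes (25 distal peaks) and myeloid genes (15) had 0 members, and chromatin regulators had 1 of 27, an intergenic peak 53775 bp from Crebbp itself (3.66 ± 0.32 CPM in WT, 4.95 ± 0.49 CPM in CK). Accessibility at the promoters of the centroblast genes summed to 1084 to 1144 CPM in WT and 1072 to 1121 CPM in C. The sums were 1113 to 1151 CPM in K and 1065 to 1126 CPM in CK. At the promoters of the centrocyte genes they were 1533 to 1566 CPM in WT and 1486 to 1558 CPM in CK. All C mice (1504 to 1529 CPM) and K mice (1514 to 1524 CPM) were below all WT mice there, and its part in the results was not tested.

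Members differed little in position from other distal peaks. Their median distance to a TSS was 14432 bp, against 13268 bp, and 45.7% were intergenic and 44.7% intronic by their centre, against 42.3% and 49.2%. Exons held the centre of 6.74% of members and 3.73% of the others. The share of distal peaks that were members was lowest on chromosome 4 (2.89%) and highest on chromosome 18 (8.38%, 43 of 513). Of the members, 207 (26.8%) had another within 100 kb, and the 772 members had 657 different nearest protein-coding genes.

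In sequence, members were richer in G and C. Median GC content of the central 300 bases was 49.0% in members and 47.0% in the other distal peaks, with a median of 5 against 4 CG dinucleotides, and 8.33% against 11.7% of bases were soft-masked. Of the motifs searched on both strands, CCCNNGGG, a form bound by the B cell factor EBF, was found in 13.3% of members and 9.01% of the other distal peaks. GGGGCGGGG, bound by SP factors, was found in 2.85% against 1.76%, and GGGNGTGG, bound by KLF factors, in 12.3% against 10.8%. The E-box CAGCTG stood in 20.6% against 18.4% and CAGGTG in 22.5% against 24.8%. The octamer ATGCAAAT was found in 5.83% against 5.20%, TGANTCA of AP-1 in 10.6% against 10.2% and TGTGGTT of RUNX in 9.20% against 9.01%. GAAANNGAA of IRF was found in 11.3% against 12.2%, GGAANNGAA of ETS-IRF in 10.9% against 12.2%, GAGGAAGT of ETS factors in 5.96% against 6.61% and CTATTTNTA of MEF2 in 1.42% against 2.02%. Of the remaining motifs, shares were larger in members for NRF1 (0.389% against 0.185%), CRE (0.648% against 0.404%) and FOXO (5.31% against 4.53%). They were smaller for STAT (8.68% against 8.78%), TCF/LEF (4.02% against 4.13%), GATA (3.24% against 3.69%) and NF-kB (1.04% against 1.36%). The CTCF form CCACNAGG, although rich in G and C, was also less frequent (7.12% against 7.88%). The EBF, SP and KLF forms with larger shares were rich in G and C. Members also had a higher GC content, and these were not told apart. The IRF and ETS-IRF forms can overlap, as can the KLF and SP forms. Members with CCCNNGGG had a median log2 fold change of K against C of 0.18 and those without it 0.11. Such a gap was not particular to this form. The medians were 0.16 with and 0.10 without CAGGTG, which was less frequent in members, and 0.17 with and 0.11 without TGANTCA. With CTATTTNTA, found in 11 members, the median was -0.06, and without it 0.12. These differences were not tested.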

How the data were processed

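ATAC-seq was analysed in GC B cells of 17 mice (4 WT, 4 C, 4 K and 5 CK). Of the 24 samples of the series, 7 sorted WT centroblast and centrocyte samples were not analysed here. The authors aligned the reads to mm10, and built 1 consensus peak set by the ATAC-seq workflow of nf-core. The deposited values are featureCounts 2.0.1 counts of fragments in each peak, not normalized. A fragment was counted in each peak that it overlapped by a fraction of 0.2 or more, so close peaks can share fragments.

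For the choice of members, counts were divided by the column totals (CPM), and the distance ran from the peak edge to any GENCODE M21 transcript start. All 65483 peaks and 17 libraries were fitted in edgeR 4.0.16 (TMM, quasi-likelihood, 1 coefficient per genotype) in R 4.3.3, with Benjamini-Hochberg adjustment over all peaks at 0.01. DESeq2 1.42.0, other scalings, filters and definitions were alternatives. In simulated counts for K against C over 65483 peaks, edgeR called 57 of 200 peaks changed 1.3-fold. It called 120 of 200 changed 1.5-fold and 189 of 200 changed 2-fold, with 2 to 3 false calls each. The changed peaks were drawn from all peaks with a mean of 3 CPM or more and not from members. Simulated counts were independent between mice, without shared deviations by replicate number or peaks with gaps between mice. These rates therefore do not carry over to the members. Nothing states that mice with the same replicate number were littermates, but the correlations of their deviations from the group means were between 0.11 and 0.32 over the 4 pairs of K and C, and the block was therefore used beside that comparison. These were between 0.12 and 0.31 for C and WT, and at 0.10 or below for at least 1 pair in the other comparisons. The number of fragments limits the precision at low peaks.

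Members named were the 10 with the largest ratio, the 8 with the highest CK mean, up to 5 per direction with the lowest p in K against C, those nearest to genes with 4 or more members, those nearest to listed genes (up to 12), and 3 on each side of the limit. The members and lists were chosen with earlier results of these data known. Marker accessibility was summed over peaks within 1 kb of a TSS. Sequences came from RefSeq GRCm38.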

Additional observations from a re-analysis of the deposited data

Results flagged for a closer look

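In 20 members and in the medians per mouse, 84 groups of 4 or 5 mice were examined for a mouse far from the others of its genotype, and 8 had one. In unselected groups, chance gives about 1 in 20. The members examined included those named for the largest ratio, which varied most between mice, so this rate does not apply to them. Of the 8 groups, 5 were at peaks with large gaps between mice. At the peak near Scd4 (chr19:44351168), K mouse 2 was low at 0.446 CPM and CK mouse 1 was high at 22.8 CPM. C mouse 2 was high at chr12:22030406 with 3.75 CPM, K mouse 3 was high at the Rnf145 peak (chr11:44510111) with 4.18 CPM, and CK mouse 4 was low at the Mks1 peak (chr11:87840663) with 0.901 CPM. The remaining 3 were CK mouse 5, low at the Atp1b3 peak (chr9:96399149) with 41.6 CPM, CK mouse 2, high at the H2-Aa peak (chr17:34280509) with 19.5 CPM, and WT mouse 1, high at the Pax5 peak (chr4:44522320) with 3.50 CPM.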

How the results depend on the processing

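The median log2 fold change of K against C stayed above 0 under all 25 alternatives, between 0.09 and 0.16 (0.09 to 0.14 without each mouse). Counts of members with every K mouse above every C mouse were 75 to 89, and the median GC content was 48.4% over whole peaks. The number of members was 512 with a distance of 10 kb, 2036 and 423 with a CK mean of 1 and 5 CPM or more, 504 with a pseudocount of 1 CPM, 1404 and 424 with a log2 ratio of 0.3 and 0.5 or more, and 680 to 957 without each WT or CK mouse. With these definitions, members lower in K than in C numbered 0 at 10 kb, at a pseudocount of 1 CPM and at a ratio of 0.5, and 1 without the 27 members that varied over 3-fold, an alternative chosen after seeing the data. Those higher in K than in WT numbered 42 at 10 kb, and those higher in C than in WT 19 at 1 CPM. The median log2 ratios of K and C to WT were 0.28 and 0.22 at a ratio of 0.3, 0.44 and 0.31 at 0.5, and 0.30 and 0.22 with a pseudocount of 1 CPM in the ratio (without each mouse, 0.33 to 0.40 and 0.23 to 0.30).

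DESeq2 called 25 members higher and 4 lower in K than in C, 107 higher in K and 16 in C than in WT, and 95 and 7 higher in CK than in C and K. At an adjusted p of 0.05 these counts were 46, 11, 190, 22, 170 and 3, with 641 higher in CK than in WT. With the replicate block they were 27, 6, 111, 18, 108 and 2. Fits on the genotypes compared alone called 4 lower in K than in C and 23 higher in C than in WT. Requiring a 1.5-fold change left 39 members higher in K than in WT, 199 in CK than in WT and 32 in CK than in C. Without each mouse, members higher in K than in C numbered 3 to 14 and lower 2 to 7, higher in K than in WT 20 to 55, in C than in WT 6 to 8, in CK than in WT 188 to 368, in CK than in C 16 to 60, and in CK than in K 1 to 4. The cause of these shifts was not tested. Shares over all peaks are not given for these alternatives, so their counts cannot be set beside a background. No alternative varied the depth. Members between 3 and 5 CPM in CK rested on the fewest fragments.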
